A study of Rattus norvegicus with 8 samples.

Results

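The miR-30 family was examined in small RNA sequencing counts from the striatum of 8 rats, 4 that self-administered saline and 4 that self-administered methamphetamine (METH). The family was taken by name, with 10 mature strands listed, and 8 of them were among the 752 mature miRNAs of the table. These were rno-miR-30a-5p, rno-miR-30a-3p, rno-miR-30c-5p, rno-miR-30c-2-3p, rno-miR-30d-5p, rno-miR-30d-3p, rno-miR-30e-5p and rno-miR-30e-3p, written below without the rat prefix. All 8 passed the filter on low counts, which kept 507 miRNAs. The strands of miR-30b were not analysed here. All rats were wild type, and the methods of the study describe male Sprague-Dawley rats trained to press a lever for food, fitted with a jugular catheter and given daily sessions in which lever presses delivered METH in saline or saline alone. The saline rats therefore shared the training, the surgery and the anaesthesia at the end of the experiment. Rats with stable responding in the last sessions were chosen for sampling, and the age of the rats was not given in the sources used here. Each rat gave 1 library, and rats are numbered 1 to 4 within each group.

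MicroRNAs are short RNAs that guide Argonaute proteins to messenger RNAs, mostly through bases 2 to 8 of the miRNA, the seed. A miRNA hairpin is cut into a duplex whose 5p and 3p strands come from its opposite sides, and as a rule the strand kept by Argonaute, the guide, becomes abundant while its partner is degraded. The miR-30 family is expressed widely, brain included, and its 5p strands have been linked to brain-derived neurotrophic factor (Bdnf), a growth factor that supports striatal neurons. Cells of the striatum could contribute in different proportions to these bulk libraries, and fewer cells of a type cannot be told apart from less RNA per cell.

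The mature sequences show what the paralogs share. They come from RefSeq (build GRCr8), are written 5′ to 3′ and carry the seed in capitals. The 5p strands of miR-30a, miR-30c and miR-30e are shown because these 3 paralogs differ only outside the seed, and miR-384-5p because it was the remaining entry of the RefSeq table with this seed. These comparisons of sequence do not cover miR-30d, because that table held no mature entry for miR-30d-5p, and its seed was not compared.
miR-30a-5p: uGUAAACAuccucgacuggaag
miR-30c-5p: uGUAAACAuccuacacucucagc
miR-30e-5p: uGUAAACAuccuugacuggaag
miR-384-5p: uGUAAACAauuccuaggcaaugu
The seed GUAAACA was found in 4 of the 694 mature names of that table, a count that leaves out strands without an entry, such as miR-30d-5p. Counted from 1 at the 5′ end, miR-30a-5p and miR-30e-5p differed by a single substitution, C13U, over 22 bases. The substitutions from miR-30a-5p to miR-30c-5p were C13A, G14C, G18C, G19U and A20C, so the 3 strands were identical over their first 12 bases. miR-384-5p was identical to miR-30a-5p over its first 8 bases and at 12 of 22 bases in all. RefSeq places miR-30c-5p in 2 genes, Mir30c1 and Mir30c2, so its count cannot be assigned to either.

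The 3p strand of miR-30a had another seed than those of miR-30c, which shared theirs. The strand of miR-30a is shown because it is compared with its partner below, and those of miR-30c because they separate the 2 genes.
miR-30a-3p: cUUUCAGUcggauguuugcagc
miR-30c-1-3p: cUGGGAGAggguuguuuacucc
miR-30c-2-3p: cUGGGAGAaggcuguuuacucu
The substitutions from miR-30c-1-3p to miR-30c-2-3p were G9A, U12C and C22U. miR-30c-1-3p is not among the listed members, and it was added after its values were seen because it marks the Mir30c1 hairpin. Both strands of miR-30a lie in the Mir30a hairpin, at GRCr8 chr9:33233941-33234011 on the plus strand, given here with the 5p and 3p strands in capitals.
Mir30a hairpin: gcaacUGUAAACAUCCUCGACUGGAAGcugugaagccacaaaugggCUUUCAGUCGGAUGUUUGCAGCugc
In the gene order of GRCr8, Mir30c1 and Mir30e lie next to each other within the span of Nfyc, a subunit gene of the transcription factor NF-Y. Mir30a is the gene before Mir30c2, and Mir30b the gene before Mir30d. The reads had been aligned to another build, rn6. Because some of these strands differ at few bases, counts of close paralogs are uncertain where reads could be shared. No member had even counts in all libraries, whereas 35 other miRNAs did.

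Before the members are described, 1 library has to be named. Total counts ranged from 12929302 to 27632443 per library, METH rat 1 having the fewest. On the first principal component of log2 CPM (CPM being counts relative to library size, scaled by the trimmed mean of M-values, TMM), which held 42.0% of the variance, METH rat 4 lay at -21.5 and the other 7 rats between -2.83 and 7.29, with saline rat 1 the lowest of these 7. In METH rat 4 the summed level of the erythrocyte markers, 3 of 4 listed being in the table, was 2817 CPM against 342 to 648 CPM in METH rats 1 to 3 and 403 to 644 CPM in saline rats. Both choroid plexus markers summed to 6953 CPM in METH rat 4, against 2768 to 2827 CPM in METH rats 1 to 3 and 2686 to 3474 CPM in saline rats. The 4 vessel markers summed to 13865 CPM in METH rat 4, above 10534 to 12082 CPM in the other 7 rats, and the 3 oligodendrocyte markers to 4492 CPM, against 2334 to 4051 CPM in METH rats 1 to 3 and 2897 to 3191 CPM in saline rats. The 5 neuron markers, which include miR-124-3p and were all detected, summed to 332505 CPM in METH rat 4, within the 278798 to 483528 CPM of the saline rats. The 3 leukocyte and microglia markers were between 8.92 and 33.5 CPM in all rats. The TMM factor of METH rat 4 was 0.766, against 0.959 to 1.15 in the other 7 rats, which raises its CPM. Relative to library totals, METH rat 4 was the highest for the erythrocyte and choroid plexus sums, but not for the vessel and oligodendrocyte sums. None of the markers in the table was at 0, and the part of these cells in the miR-30 results was not tested. The log2 fold changes and arm ratio differences of the members are therefore given with and without METH rat 4.

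Among the 4 measured 5p strands of the miR-30 family, miR-30d-5p was the most abundant. Its mean over the 8 rats was 5016 CPM, which ranked it 32 of the 507 tested miRNAs. The 4 measured 5p strands followed the order miR-30d-5p, miR-30c-5p, miR-30a-5p and miR-30e-5p, with means of 5016, 1634, 1229 and 396 CPM. The 3p strands were far lower, with means of 70.4 CPM for miR-30e-3p, 68.8 CPM for miR-30a-3p, 35.7 CPM for miR-30c-2-3p and 8.92 CPM for miR-30d-3p. Thus the most abundant of the measured 5p strands had the least abundant of the measured 3p strands. Ligation and amplification in library preparation differ between sequences, so these are levels of sequenced reads.

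**Figure D1:**
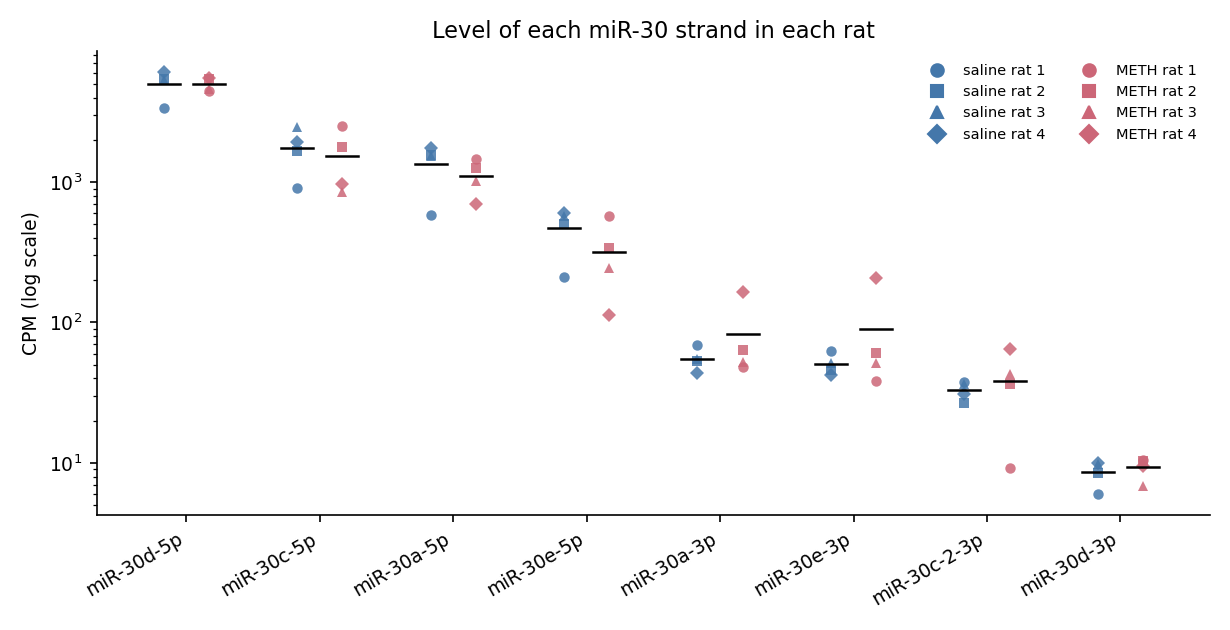
Level of each miR-30 strand in CPM (log axis) in each rat, ordered by mean log2 CPM. Symbols are rats, blue for saline and red for METH, and black bars are group means. The groups overlap for every strand, and METH rat 4 has the lowest miR-30e-5p (113 CPM) and the highest miR-30e-3p (209 CPM).

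This order was compared library by library. miR-30d-5p exceeded miR-30c-5p in 8 of 8 libraries, and miR-30a-5p exceeded miR-30e-5p in 8 of 8. miR-30c-5p and miR-30a-5p were close, with a difference of 0.39 on the log2 CPM scale against SDs over 8 rats of 0.64 and 0.58, and miR-30a-5p was the higher in METH rat 3. miR-30e-5p was above miR-30a-3p in 7 of 8 libraries, the exception being METH rat 4. miR-30a-3p and miR-30e-3p differed by only 0.07 on this scale, with SDs of 0.60 and 0.77, so these neighbours in the order did not differ beyond their spread. The order of the means was the same with a prior count of 0.5, and a library's scaling cannot alter the order of strands within it.

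The 5p strands together made up 0.896 ± 0.240% of all miRNA counts in saline rats and 0.777 ± 0.211% in METH rats (SD, n = 4 each). In saline rats 1 to 4 their sum was 5057, 9089, 9868 and 10382 CPM. In METH rats 1 to 4 it was 8988, 8798, 6736 and 7281 CPM. Saline rat 1 was the lowest of all 8 rats, and in CPM the other 3 saline rats were above all 4 METH rats. As a percentage of library totals this separation was not seen, since METH rat 1, at 1.01%, was above saline rat 3, at 0.979%. Of the summed 5p counts, miR-30d-5p made up 59.5 ± 5.26% (SD, n = 4) in saline rats and 63.8 ± 11.1% (SD, n = 4) in METH rats. Its share ran from 49.5% in METH rat 1 to 75.5% in METH rat 4, so the METH group held both ends of the range. The share of miR-30c-5p was 19.9 ± 3.41% in saline rats and 18.5 ± 7.11% in METH rats, that of miR-30a-5p was 15.2 ± 2.59% and 13.8 ± 2.93%, and that of miR-30e-5p was 5.33 ± 0.80% and 3.86 ± 1.98% (SD, n = 4 each). For miR-30e-5p the share was 1.55% in METH rat 4 and 3.63 to 6.39% in the other 7 rats. Without METH rat 4, the METH minus saline difference in share went from 4.31 to 0.410 percentage points for miR-30d-5p. It went from -1.47 to -0.700 for miR-30e-5p, from -1.46 to -0.044 for miR-30a-5p and from -1.38 to 0.334 for miR-30c-5p. Without METH rat 1 it was larger in size, at 9.08 (miR-30d-5p), -2.31 (miR-30e-5p), -2.27 (miR-30a-5p) and -4.50 (miR-30c-5p). For miR-30a-5p it was -2.70 without saline rat 1.

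**Figure D2:**
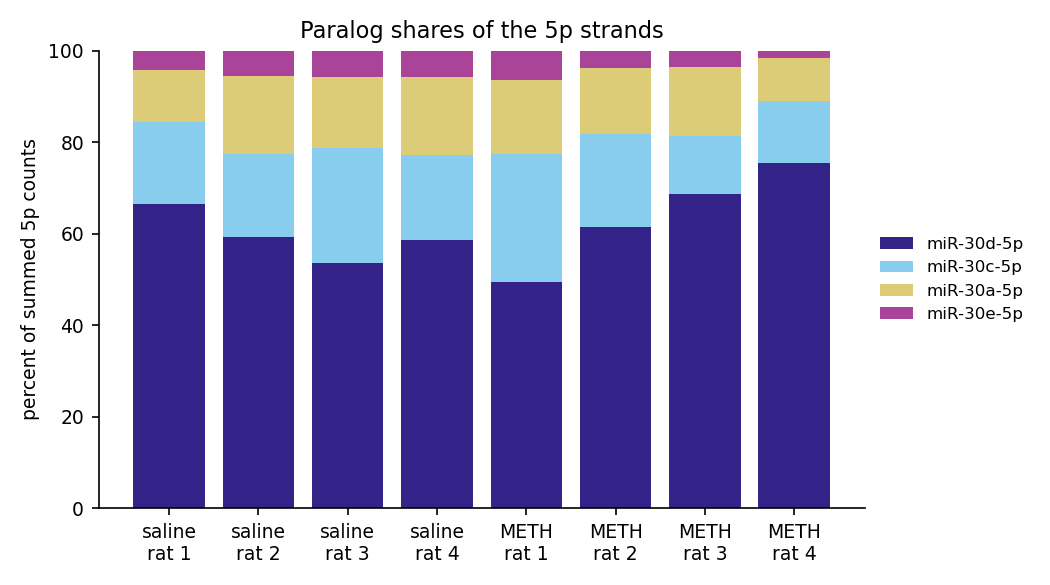
Share of each 5p strand in the summed 5p counts of the family (percent, y axis) for each of the 8 rats (x axis). miR-30d-5p holds the largest share in every rat, from 49.5% in METH rat 1 to 75.5% in METH rat 4.

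The comparison of METH with saline asked whether any miR-30 strand differed between the groups. By edgeR's quasi-likelihood test, 0 of the 8 members passed an adjusted p of 0.05, against a background of 0% over all 507 miRNAs. At an unadjusted p under 0.05 there were also 0 members, where 5.52% of all miRNAs passed. DESeq2 called 0 members where 1.58% of all miRNAs were called, the edgeR likelihood ratio test 0 where 1.38% were called, and limma voom 0 where 0% were called. The groups overlapped for all 8 members, whereas 3.16% of all miRNAs had groups that did not overlap. An estimate of 1.5-fold or more was found for 1 of the 8 members, miR-30e-3p, against 16.8% of all miRNAs. This count depended on the setting. miR-30e-3p was under that limit with library totals (log2 fold change 0.56) and without METH rat 4 (-0.01). With upper quartile scaling miR-30a-3p (0.68) was also over it. Over the 8 members the median log2 fold change was 0.05, beside -0.02 over all miRNAs.

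The abundant guide miR-30d-5p had almost the same mean in both groups. Its level in saline rats 1 to 4 was 3361, 5380, 5297 and 6095 CPM, and in METH rats 1 to 4 it was 4451, 5417, 4626 and 5500 CPM. Saline rat 1 was the lowest and the METH values lay within the range of the saline values. The estimated log2 fold change was -0.01 ± 0.23 (SE, 95% interval -0.51 to 0.49, edgeR adjusted p = 0.989), and it was -0.05 without METH rat 4. On the linear scale the interval over all 8 rats runs from 0.700-fold to 1.41-fold, so a change of moderate size was not detectable with 4 rats per group.

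miR-30c-5p, the product of 2 genes, was at 905, 1656, 2470 and 1929 CPM in saline rats 1 to 4 and at 2507, 1781, 853 and 975 CPM in METH rats 1 to 4. METH rat 1 was the highest and METH rat 3 the lowest of all rats. The log2 fold change was estimated at -0.19 ± 0.40 (SE, edgeR adjusted p = 0.978), and it was -0.001 without METH rat 4. It turned to 0.01 without METH rat 3 and 0.08 without saline rat 3, and was larger in size without METH rat 1, at -0.53, and without saline rat 1, at -0.34. Its counts were 16240 or more in every library.

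miR-30a-5p, a strand linked to Bdnf, was at 582, 1551, 1526 and 1754 CPM in saline rats 1 to 4. In METH rats 1 to 4 it was at 1456, 1259, 1014 and 694 CPM. In CPM all METH rats were below the 3 highest saline rats, and saline rat 1 was below every METH rat. As a percentage of library totals neither held, with METH rat 1 at 0.164% above saline rat 3 at 0.151%, and METH rat 4 at 0.0532% below saline rat 1 at 0.0619%. The estimated log2 fold change was -0.29 ± 0.36 (SE, 95% interval -1.08 to 0.50, edgeR adjusted p = 0.927). Without saline rat 1 it was -0.50, and without METH rat 4 it was -0.10.

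miR-30e-5p was the most variable 5p strand. It was at 210, 503, 575 and 604 CPM in saline rats 1 to 4 and at 574, 341, 245 and 113 CPM in METH rats 1 to 4. The highest value was 5.36 times the lowest, against 1.81 times for miR-30d-5p. Saline rat 1 and METH rats 3 and 4 were low, and METH rat 1 was level with the higher saline rats. The estimated log2 fold change was -0.57 ± 0.48 (SE, 95% interval -1.64 to 0.49, edgeR adjusted p = 0.840). Its spread within groups was 0.86 on the log2 CPM scale, against a median of 0.47 over all tested miRNAs, and 55 of the 507 had a larger spread. Without METH rat 4 the log2 fold change was -0.27, and without METH rat 1 it was -1.02 (edgeR adjusted p = 0.469).

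The group means of miR-30e-3p and miR-30a-3p, partners of the 5p strands above, differed through 1 rat. miR-30e-3p was at 63.1, 46.0, 51.6 and 42.6 CPM in saline rats 1 to 4 and at 38.2, 61.0, 51.6 and 209 CPM in METH rats 1 to 4. METH rat 4 was more than 3 times any other rat, and the other METH rats lay close to or within the saline range. The log2 fold change was estimated at 0.82 ± 0.50 (SE, edgeR adjusted p = 0.818), and it was -0.01 without METH rat 4. miR-30a-3p behaved alike, at 69.0, 53.3, 55.4 and 43.9 CPM in saline rats 1 to 4 and at 48.2, 63.2, 52.7 and 165 CPM in METH rats 1 to 4. METH rat 4 again stood above the other 7 rats. Its log2 fold change of 0.57 ± 0.40 (SE), adjusted p = 0.818 in edgeR, became -0.01 without METH rat 4.

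miR-30c-2-3p, which marks the Mir30c2 hairpin, was at 37.4, 26.6, 36.5 and 30.8 CPM in saline rats 1 to 4 and at 9.20, 36.6, 43.3 and 64.8 CPM in METH rats 1 to 4. The METH group held the lowest and the highest rat, METH rat 1 and METH rat 4. The log2 fold change was estimated at 0.23 ± 0.47 (SE, edgeR adjusted p = 0.976), and it was -0.14 without METH rat 4 and 0.55 without METH rat 1. miR-30d-3p was rare, between 134 and 268 counts per library, or 6.01 to 10.4 CPM. Its log2 fold change was estimated at 0.11 ± 0.27 (SE, edgeR adjusted p = 0.978), and 0.12 without METH rat 4. Leaving out METH rat 2 gave the lowest value, 0.018, and leaving out saline rat 3 the highest, 0.22, and its groups overlapped.

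Across the 8 members, the 4 5p strands had a log2 fold change below 0 and the 4 3p strands one above 0, none past the test. Directions of miR-30d-5p, miR-30c-5p, miR-30c-2-3p, miR-30a-3p and miR-30e-3p turned in at least 1 alternative scaling, test or fit without 1 rat. Of all miRNAs, 47.3% had a log2 fold change above 0.

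**Figure D3:**
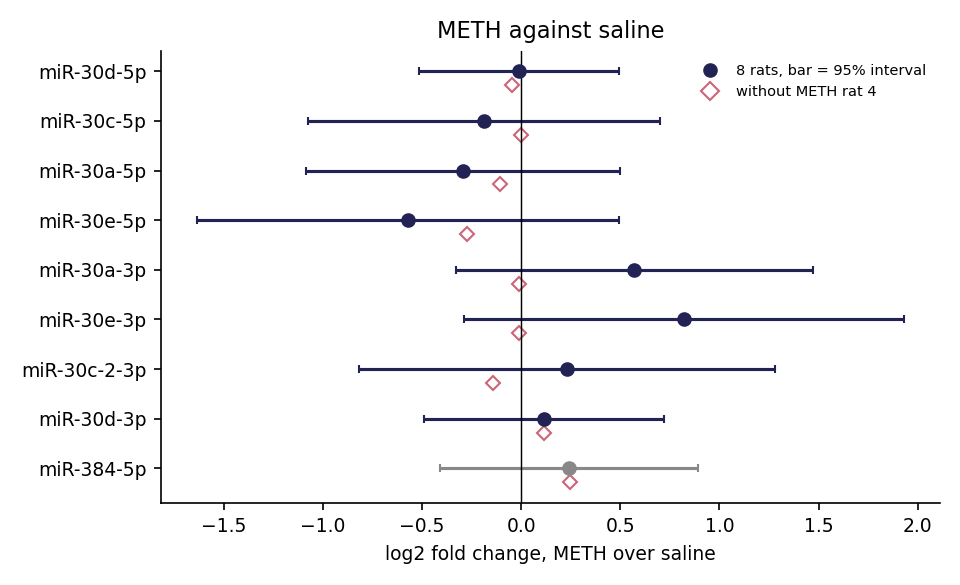
Log2 fold change of METH over saline (x axis) for the 8 miR-30 strands and for miR-384-5p (grey), with 95% intervals from the edgeR quasi-likelihood fit on 8 rats. Every interval includes 0, and open diamonds, the fit without METH rat 4, lie between -0.27 and 0.25.

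The balance between the 5p and 3p strands differed between paralogs and between rats. For miR-30d, the 3p strand was 0.147 to 0.234% of the counts of both strands in all 8 rats. For miR-30a it was 10.6, 3.32, 3.50 and 2.44% in saline rats 1 to 4 and 3.20, 4.78, 4.95 and 19.2% in METH rats 1 to 4. For miR-30e it was 23.1, 8.39, 8.23 and 6.59% in saline rats 1 to 4 and 6.23, 15.2, 17.4 and 64.9% in METH rats 1 to 4. Saline rat 1 and METH rat 4 had the highest 3p shares for both miR-30a and miR-30e, and in METH rat 4 the 3p strand of miR-30e outnumbered its 5p strand, with 3478 against 1877 counts. Exact 95% binomial intervals of these shares were at most 2.57 percentage points wide for miR-30e and 1.30 points for miR-30a. They cover counting error only, because reads copied by PCR are not independent molecules.

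The ratio of 5p to 3p counts within a library needs no scaling, and it was compared between groups on the log2 scale. For miR-30e the log2 ratio was 3.12 ± 0.94 (SD, n = 4) in saline rats and 1.94 ± 2.02 (SD, n = 4) in METH rats. This difference of -1.18 was smaller than the spread between METH rats (two-sided exact permutation test, p = 0.371, adjusted over the 3 precursors p = 0.543). Without METH rat 4 the difference was -0.24. For miR-30a the log2 ratio was 4.51 ± 0.99 (SD, n = 4) and 3.89 ± 1.25 (SD, n = 4), a difference of -0.62 (exact permutation test, p = 0.514, adjusted p = 0.543) that became -0.01 without METH rat 4. For miR-30d it was 9.19 ± 0.11 (SD, n = 4) and 9.08 ± 0.28 (SD, n = 4), a difference of -0.11 (exact permutation test, p = 0.543, adjusted p = 0.543), which was -0.14 without METH rat 4 and 0.01 without METH rat 1. With 4 rats per group the smallest p this test allows is 0.0286.

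Between rats, the arm ratios of miR-30a and miR-30e moved together, although their genes are not neighbours. Over the 8 rats the log2 ratios had a Pearson r of 0.965 (exact permutation p = 0.000248, adjusted over 3 relations p = 0.000744) and a Spearman rho of 0.952 (exact permutation p = 0.00114, adjusted p = 0.00342). No background from precursor pairs outside the family is given here. The relation was examined after the values had been seen, so its p-values are a description and not independent support. Without saline rat 1 and METH rat 4, the rats farthest from the median, r was 0.925 over 6 rats, and after subtracting group means from all 8 rats it was 0.966. The points share their library, and the 5p strands of both precursors differ at 1 base, so reads of one could be counted for the other. By contrast, the ratio of miR-30d had no detectable relation to that of miR-30a (r = -0.0932, exact permutation p = 0.804, adjusted p = 0.804) or miR-30e (r = -0.218, exact permutation p = 0.558, adjusted p = 0.804), with rho of -0.119 (exact permutation p = 0.793, adjusted p = 0.793) and -0.333 (exact permutation p = 0.428, adjusted p = 0.642). Without the 2 rats farthest on the x axis these r values were -0.144 (without saline rat 1 and METH rat 4) and 0.170 (without METH rats 1 and 3).

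**Figure D4:**
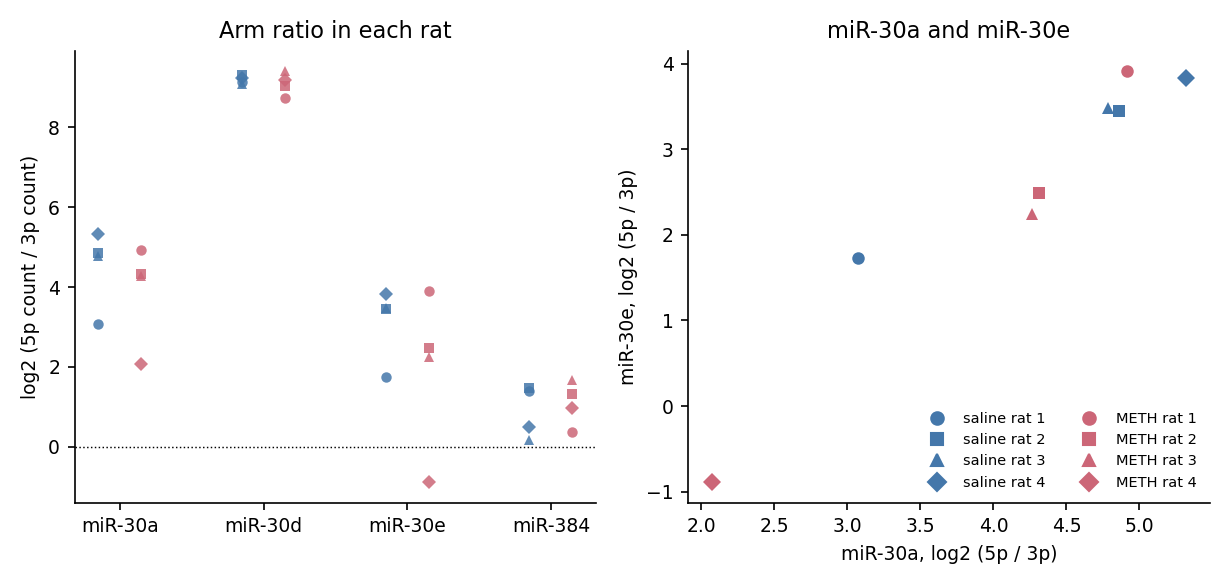
Left, log2 ratio of 5p to 3p counts in each rat (blue saline, red METH) for miR-30a, miR-30d, miR-30e and miR-384, with equal counts at the dotted line. Right, the ratio of miR-30e against that of miR-30a, in which the 8 rats fall along a line (r = 0.965) with METH rat 4 and saline rat 1 at its lower end.

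These ratios were set beside all 174 precursors with both strands tested. The range of the log2 ratio over the 8 rats was 4.80 for miR-30e, 3.25 for miR-30a and 0.67 for miR-30d, against a median of 1.92 over all precursors. miR-30e was 7th, miR-30a 27th and miR-30d 171st from the widest. The ratio of miR-30e in METH rat 4 lay 4.34 below the median of the other 7 rats on the log2 scale, the lowest departure but 1 of the 174, and that of miR-30a lay 2.71 below. This was not the direction of most precursors in that rat, where 102 departed upwards and 72 downwards, with a median of 0.40. In saline rat 1, miR-30e and miR-30a departed by -1.71 each, where the median over all precursors was 0.00. The departure of miR-30d was 0.05 in METH rat 4 and -0.05 in saline rat 1. Low departures in both rats were not particular to miR-30a and miR-30e. For example, miR-34b departed by -2.88 in METH rat 4 and -1.47 in saline rat 1, and miR-540 by -1.82 and -1.78. These positions describe 2 libraries that were singled out after their values were seen.

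**Figure D5:**
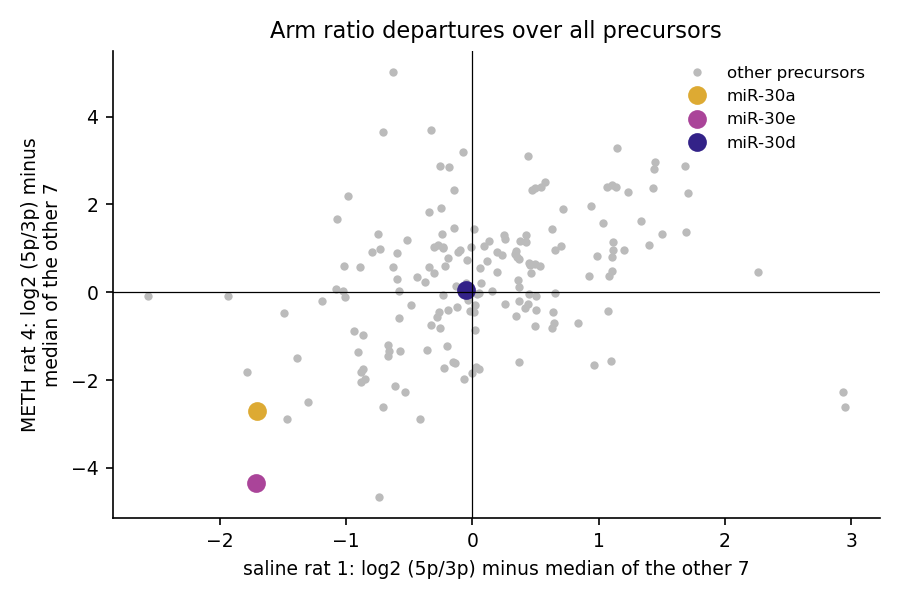
Departure of the log2 5p to 3p ratio from the median of the other 7 rats, for saline rat 1 (x axis) and METH rat 4 (y axis), with 1 point for each of 174 precursors. miR-30a and miR-30e lie low in both rats, as do some other precursors, whereas miR-30d lies near 0 in both.

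For miR-30c the 3p strands of both hairpins were measured. Counts of miR-30c-2-3p were 835, 619, 1002 and 789 in saline rats 1 to 4 and 134, 728, 1072 and 1080 in METH rats 1 to 4. Those of miR-30c-1-3p were 248, 239, 322 and 267, and 120, 205, 287 and 253. Hence miR-30c-2-3p outnumbered miR-30c-1-3p by 2.59 to 4.27 times in 7 rats but by only 1.12 times in METH rat 1, the smallest library. The 2 strands together were 1.92 to 5.09% of all miR-30c counts in saline rats and 0.691 to 7.59% in METH rats. METH rat 1 was the lowest and METH rat 4 the highest of all rats. For miR-30c-1-3p the log2 fold change was estimated at 0.06 ± 0.26 (SE, edgeR adjusted p = 0.978), and -0.11 without METH rat 4.

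miR-384-5p, a brain-enriched miRNA with the miR-30 seed, had a mean of 3507 CPM, between those of miR-30d-5p and miR-30c-5p. It was at 4475, 3831, 2008 and 2541 CPM in saline rats 1 to 4 and at 2651, 4317, 4456 and 3781 CPM in METH rats 1 to 4. Saline rat 1, the lowest rat for the summed miR-30 5p strands, was the highest for miR-384-5p. Its log2 fold change was estimated at 0.24 ± 0.29 (SE, edgeR adjusted p = 0.923), and 0.25 without METH rat 4. It ranged from 0.085 without saline rat 3 to 0.48 without saline rat 1, and was 0.62 in limma voom (unadjusted p = 0.0338, adjusted p = 0.372). Over the 8 rats, log2 CPM of miR-384-5p had a Pearson correlation of -0.788 with miR-30c-5p, -0.664 with miR-30e-5p, -0.633 with miR-30a-5p and -0.383 with miR-30d-5p, given as a description because values of 1 library share a scaling factor. Of the summed counts of miR-384-5p and the 4 miR-30 5p strands, miR-384-5p made up 28.3 ± 13.6% (SD, n = 4) in saline rats and 32.4 ± 7.09% (SD, n = 4) in METH rats. These 5 strands together summed to 11813 ± 1598 CPM (SD, n = 4) in saline rats and 11752 ± 942 CPM (SD, n = 4) in METH rats, a narrower relative spread than that of the miR-30 5p strands alone. The 3p share of miR-384 was 24.0 to 47.1%, and its arm ratio lay -0.35 from the median of the other rats in METH rat 4, so it did not follow miR-30e there.

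Outside the family, the miRNA whose log2 CPM was most like that of the summed 5p strands was miR-32-5p, with a Pearson correlation of 0.988 over 8 rats. It was followed by miR-137-3p, a neuronal miRNA, and miR-190a-3p, both at 0.929. miR-32-5p was at 4.03, 13.8, 14.3 and 18.0 CPM in saline rats 1 to 4 and at 11.3, 11.4, 6.54 and 8.83 CPM in METH rats 1 to 4, so it was also lowest in saline rat 1. It remained the most alike in each of the 8 sets that left out 1 rat, at 0.973 to 0.992, and ranked 3rd with library totals. The places of the other two were less settled, since with 1 rat left out miR-137-3p ranked from 2nd to 9th (9th without METH rat 4) and miR-190a-3p from 3rd to 6th (6th without METH rat 1). The counts of miR-190a-3p were even in every library.

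Other miRNAs linked to Bdnf were examined as a list, of which 13 of 14 were tested. In the edgeR quasi-likelihood test 0 had an adjusted p under 0.05, and 6 had a log2 fold change above 0 and 7 below 0, where 47.3% of all miRNAs were above 0. The median was -0.03, beside -0.02 over all miRNAs. At an unadjusted p under 0.05 there was 1 of 13, where 5.52% of all miRNAs passed. This was miR-182, with the highest log2 fold change of the list at 3.63 and an adjusted p of 0.117 in that test. miR-182 was called by DESeq2 (adjusted p = 4.26e-06) and by the edgeR likelihood ratio test (adjusted p = 0.000212), as 1 of the 8 and 7 miRNAs they called, and in the edgeR quasi-likelihood test without METH rat 1 (adjusted p = 0.00437). The lowest log2 fold change was that of miR-210-3p at -0.45, with an adjusted p of 0.868 in edgeR.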

How the data were processed

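Small RNA of 8 rat striata was sequenced, 1 library per rat. The authors gel-purified small RNA, made libraries by a protocol that includes unique molecular identifiers, trimmed adapters with Cutadapt, aligned reads to rn6 with STAR 2.7.0e and counted them with featureCounts of Subread 1.6.4. The values deposited are raw counts per mature miRNA. Merging of identifiers, the annotation release and the rule for reads with several alignments are not given in the sources used here. Paralog counts depend on that rule.

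Groups follow the treatment in the sample labels. Counts were filtered with filterByExpr (minimum count 10) and scaled by TMM, and METH was compared with saline in R 4.3.3 by edgeR 4.0.16 (quasi-likelihood test), with Benjamini-Hochberg adjustment over 507 miRNAs and a threshold of 0.05. Standard errors were obtained from the F statistic and the log2 fold change. Log2 CPM used a prior count of 2, arm ratios a pseudocount of 0.5, and single values an exact permutation test over 70 assignments (SciPy 1.17.1). The edgeR test was checked on simulated counts that shared a common dispersion and held larger changes than those estimated for the members. That check therefore does not show how the test performs on the members. Alternatives were 3 scalings, 2 filters, DESeq2 1.42.0, the likelihood ratio test, limma 3.58.1 voom with quality weights, a replicate block, other pseudocounts, and leaving out each rat. The members and lists were chosen with earlier results of these data known. Named miRNAs were the members, sharers of their seed and the 3 most alike in level. The marker lists were neuron, oligodendrocyte, erythrocyte, choroid plexus, vessel, and leukocyte and microglia. Sums of 5p strands were planned over 5 strands and cover the 4 in the table. The p-values of the fits set group differences against the spread between rats, and the permutation p-values count rearrangements of the rats.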

Additional observations from a re-analysis of the deposited data

Results flagged for a closer look

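Across strands and shares, 36 sets of 4 rats were checked for a rat that lay apart from the rest, and 2 had one. Chance gives about 1 set in 20, so 2 of 36 is near the rate that chance gives. Saline rat 1 was apart from the other saline rats for miR-30a-5p, at 9.18 log2 CPM against 10.6 to 10.8. Saline rat 3 was apart for the share of miR-30c-5p in the summed 5p strands, at 25.03% against 17.9 to 18.6%.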

How the results depend on the processing

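In each setting tried, 0 members were called. Over all miRNAs, calls rose from 0 to 8 with DESeq2 and 7 with the likelihood ratio test, and ranged from 0 to 5 (without METH rat 1) when 1 rat was left out. For the Bdnf list, examined in these fits after seeing the data, calls rose from 0 to 1 (miR-182) with DESeq2 and with the likelihood ratio test, and ranged from 0 to 1 with 1 rat left out, the call coming without METH rat 1. Adjusted p-values of the members were 0.418 or higher in every fit, the lowest for miR-30e-5p in limma voom. Its unadjusted p there was 0.0469 at a log2 fold change of -0.69, where 58 of 507 miRNAs were under 0.05. Without METH rat 1, miR-30e-3p had an unadjusted edgeR quasi-likelihood p of 0.0463 at 1.08, where 54 of 513 miRNAs were under 0.05. Of 72 member values in other settings, 67 kept their direction, and of 64 with 1 rat left out, 55 did. Sizes were less stable. In limma voom the 3p strands were at 0.24 (miR-30e-3p), 0.20 (miR-30a-3p), 0.0015 (miR-30c-2-3p) and 0.0047 (miR-30d-3p). The 5p strands were then at -0.31 (miR-30a-5p), -0.37 (miR-30c-5p), -0.69 (miR-30e-5p) and -0.080 (miR-30d-5p). With library totals miR-30c-2-3p was at 0.018, and with upper quartile factors miR-30c-5p was at -0.037. miR-30d-5p turned to 0.054 with RLE factors, 0.10 with upper quartile factors (where the median of all miRNAs moved from -0.02 to 0.08), 0.054 with DESeq2 and 0.017 with the replicate block. The replicate block, an arbitrary pairing by order of the labels (deviations of same-numbered rats correlated at -0.36 to -0.15), put miR-30c-2-3p at -0.0012. miR-30c-1-3p was at -0.10 with library totals and -0.066 with limma voom. The cause was not tested. With 1 rat left out, log2 fold changes ranged from -0.011 to 0.76 for miR-30a-3p, -0.011 to 1.08 for miR-30e-3p and -0.14 to 0.55 for miR-30c-2-3p, each lowest without METH rat 4. They ranged from -0.53 to 0.076 for miR-30c-5p, above 0 without saline rat 3 or METH rat 3, and from -0.12 to 0.069 for miR-30d-5p, above 0 without saline rat 2, 3 or 4 or METH rat 1. For miR-30c-1-3p they were -0.11 to 0.18. The difference in arm ratio was -1.84 to -0.24 for miR-30e, -1.10 to -0.012 for miR-30a and -0.21 to 0.010 for miR-30d, the last above 0 without METH rat 1. The METH minus saline differences in arm ratio moved by under 0.01 with a pseudocount of 5. Counts of miR-30d-3p were low, at 134 to 268 per library.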
